A study of Mus musculus with 24 samples.

Results

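The genes described here decide whether pyruvate in the liver cell is oxidised in mitochondria or exchanged with lactate: Pdk1, Pdk2, Pdk4, Pdp2, Pdha1, Pdhb, Mpc1, Mpc2, Ldha and Slc16a1. Members were all probe sets, the groups of short probes that an Affymetrix array uses to read a transcript, whose platform annotation lists exactly 1 gene symbol that is among these 10 genes. There were 15 such probe sets among the 45101 of the array, for 9 of the 10 genes: 4 for Pdk1, 2 each for Pdha1, Pdhb and Slc16a1, and 1 each for Pdk2, Pdk4, Pdp2, Mpc1 and Ldha. No probe set was matched to Mpc2, which was not analysed here.

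Liver RNA came from male C57BL6J mice, with 6 mice in each of 3 groups and 1 array per mouse. The HF+P mice received a high-fat diet (45% fat) that contained 5% powdered Japanese yam propagules (bulbils that grow on the vine), the HF mice received the same diet without them, and the LF mice received a low-fat diet. All mice were first kept on low-fat food, ate their diets freely for 4 weeks and had fasted for 16 h when the liver was taken. The HF arrays carry 2 sets of values, 1 from an analysis together with LF and 1 from a re-analysis together with HF+P, and no test mixed them. The age of the mice was not given.

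Pyruvate is the end product of glycolysis and can also be formed from lactate and alanine. It enters mitochondria through the mitochondrial pyruvate carrier, a complex of MPC1 and MPC2, and is turned into acetyl-CoA by the pyruvate dehydrogenase complex, whose first enzyme is built from the products of Pdha1 and Pdhb. Pyruvate dehydrogenase kinases (Pdk genes) switch the complex off by phosphorylation, and phosphatases such as the product of Pdp2 switch it on again. In fasting, Pdk4 is known to rise under PPAR-alpha, glucocorticoids and FOXO factors, which spares pyruvate for glucose synthesis. Lactate dehydrogenase A interconverts pyruvate and lactate, and Slc16a1 encodes MCT1, a proton-coupled carrier of lactate, pyruvate and ketone bodies across the plasma membrane.

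The deposited values lie between 5.36 and 15.02 and were handled as log2 values, but they differ very little between arrays: the SD over the 12 columns of a comparison had a median of 4.17e-06 over all probe sets in the LF and HF set. A difference is therefore not read as a fold change. Its size is given as a standardized difference (Hedges' g), in which the gap between group means is divided by their pooled SD and corrected for few samples, with its 95% interval. Tests were limma fits over 45037 probe sets with Benjamini-Hochberg adjustment and a threshold of 0.05, so 6 arrays per group limit the precision. Hepatocyte markers were bright on these arrays, as the liver label requires, with mean deposited values of 14.9 for Alb and 14.7 for Ttr in HF livers and the same rounded values in LF livers.

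HF livers were set against LF livers to see what the high-fat diet did. Ldha, Slc16a1 and Pdk4 had the lowest values in HF livers relative to LF livers, with standardized differences of -2.58, -2.56 and -2.38. Just behind them came subunits of the pyruvate dehydrogenase enzyme, Pdha1 at -1.78 and 1 of the 2 Pdhb probe sets at -1.72. None of the 15 member probe sets passed the threshold over all probe sets (limma, adjusted p = 0.0541 or more; 7 at an unadjusted p under 0.05), where 302 of 45037 probe sets, 0.671%, were called, 121 higher (0.269%) and 181 lower (0.402%). When each gene was represented by its brightest probe set alone and p-values were adjusted over 18193 genes, Ldha, Slc16a1 and Pdk4 fell (3 of 9 genes, against 1.14% of all genes called lower, and 0 rose, against 0.682%). The members were chosen with earlier results of these data known. Neither this count nor the later counts of members are therefore independent evidence. The groups of 6 mice come from bulk tissue, in which fewer cells of a type and less RNA per cell cannot be told apart.

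The promoters of these 3 genes are shown because their transcripts lay lower together. In GRCm38.p6 the Ldha gene lies at chr7:46842274-46855627, Slc16a1 at chr3:104638664-104658462 and Pdk4 at chr6:5483351-5496278. Each line gives the 250 bases before a RefSeq transcript start (same build), 5′ to 3′ on the strand of the gene. For Slc16a1 and Pdk4 this start is the 5′ end of the gene's span, whereas the Ldha window lies inside the span, before an internal transcript start. Capitals mark matches, on either strand, to AGGTCA, the core of nuclear receptor response elements, ACGTG, the core of the hypoxia response element, CACGTG, an E-box that contains ACGTG on both strands, and TGTTTAC, a forkhead motif. The windows are chr7:46845554-46845803 on the plus strand for Ldha, the first of its 2 windows, chr3:104638414-104638663 on the plus strand for Slc16a1 and chr6:5496279-5496528 on the minus strand for Pdk4.
Ldha: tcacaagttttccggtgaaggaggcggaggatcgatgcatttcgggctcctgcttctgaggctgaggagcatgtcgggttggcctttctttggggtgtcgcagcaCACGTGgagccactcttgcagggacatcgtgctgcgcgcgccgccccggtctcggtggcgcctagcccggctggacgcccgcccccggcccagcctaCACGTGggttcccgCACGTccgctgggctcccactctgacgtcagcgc
Slc16a1: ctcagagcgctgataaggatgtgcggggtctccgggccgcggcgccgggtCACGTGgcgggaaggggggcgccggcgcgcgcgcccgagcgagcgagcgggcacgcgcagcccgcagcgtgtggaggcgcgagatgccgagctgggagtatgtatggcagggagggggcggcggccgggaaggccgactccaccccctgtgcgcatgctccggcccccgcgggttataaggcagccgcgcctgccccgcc
Pdk4: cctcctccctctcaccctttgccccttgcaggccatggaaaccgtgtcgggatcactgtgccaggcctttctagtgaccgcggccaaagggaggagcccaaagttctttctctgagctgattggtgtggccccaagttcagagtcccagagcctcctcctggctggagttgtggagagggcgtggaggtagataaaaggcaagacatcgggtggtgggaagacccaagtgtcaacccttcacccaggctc
The Ldha window holds CACGTG at 2 places, with first bases at -145 and -48 relative to that internal transcript start, and a further ACGTG on the opposite strand at -34. The Slc16a1 window holds CACGTG at 1 place, -200. The Pdk4 window has none of the 4 motifs, and neither has the second Ldha window, which is not shown. Among all 32851 windows of this length, 6.02% hold CACGTG, 16.6% ACGTG, 14.0% AGGTCA and 3.17% TGTTTAC. Among the other members CACGTG also stands in the first window of Pdk2 and in that of Pdp2, whose transcripts showed no difference as large.

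Ldha, which encodes the A subunit of lactate dehydrogenase, had deposited values of 13.02973, 13.02979 and 13.02989 (lowest, median and highest) in the 6 HF mice, against 13.02990, 13.02993 and 13.03003 in the 6 LF mice. All HF mice lay below all LF mice, although HF mouse 3, the highest of its group, came close to LF mouse 2. The standardized difference was -2.58 (95% interval -4.08 to -1.03, n = 6 per group; limma, adjusted p = 0.0541 over probe sets and 0.0379 over genes; exact permutation p = 0.00216, the smallest that 924 assignments allow). Without HF mouse 3 the difference was -3.48 and passed over all probe sets (limma, adjusted p = 0.0308). This mouse had the highest scores of its group for macrophage, lymphocyte, skeletal muscle and fat cell markers (2.47, 2.10, 1.46 and 0.82 pooled SDs above the LF mean). It had the lowest for endothelial and stellate markers (-1.28 and -0.31). The part of these scores in its Ldha value was not tested. Ldha held the same rank among all probe sets in all 12 arrays, so that quantile normalisation could not test it.

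Slc16a1, the lactate carrier gene, was read by 2 probe sets that differed in level and in result. The brighter one, 1415802_at, had deposited values of 10.1078, 10.1093 and 10.1103 in HF mice, against 10.1104, 10.1119 and 10.1132 in LF mice. The groups did not overlap, and the gap between HF mouse 1 and LF mouse 4 was narrow. The standardized difference was -2.56 (-4.05 to -1.01; limma, adjusted p = 0.0565 over probe sets and 0.0389 over genes; exact permutation p = 0.00216). It stood at -3.41 after quantile normalisation and passed there (limma, adjusted p = 0.00327), a setting that called many more probe sets than the main fit. The dimmer probe set, 1446274_at, had a mean deposited value of 6.20 in both groups, below the column medians of 6.90. Its standardized difference was 0.29 (-0.77 to 1.34), with overlapping groups. Groups that did not overlap, with HF lower, were thus found for 2 of 15 member probe sets, against 0.921% of all probe sets, and with HF higher for 0, against 0.644%.

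Pdk4, the kinase of the fasting response, had deposited values of 7.0591, 7.0592 and 7.0596 in HF mice, against 7.0595, 7.0599 and 7.0602 in LF mice. The groups overlapped only through LF mouse 4, since 5 of 6 HF mice lay below every LF mouse. The standardized difference was -2.38 (-3.82 to -0.89; limma, adjusted p = 0.0688 over probe sets and 0.0478 over genes; exact permutation p = 0.00433). Without LF mouse 4 the difference was -2.93 and passed over all probe sets (adjusted p = 0.0465). The median of each column was 6.90, so Pdk4 was read close to the middle of the probe sets.

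The calls over genes of these 3 members are not stable against single mice. Of the 12 fits that each left out 1 mouse, 4 called Ldha (without HF mouse 3 or LF mouse 2, 4 or 8), 2 called Slc16a1 (without HF mouse 1 or LF mouse 4) and 2 called Pdk4 (without HF mouse 5 or LF mouse 4). The standardized difference in these fits ranged from -3.48 to -2.38 for Ldha, from -3.19 to -2.36 for Slc16a1 and from -2.93 to -2.18 for Pdk4. The deposited differences, -0.000141 for Ldha, -0.00274 for Slc16a1 and -0.000627 for Pdk4, exceed in size the gap of 3.36e-05 by which HF arrays differed from LF arrays in their medians, whereas those of the other 12 member probe sets are smaller.

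**Figure D1:**
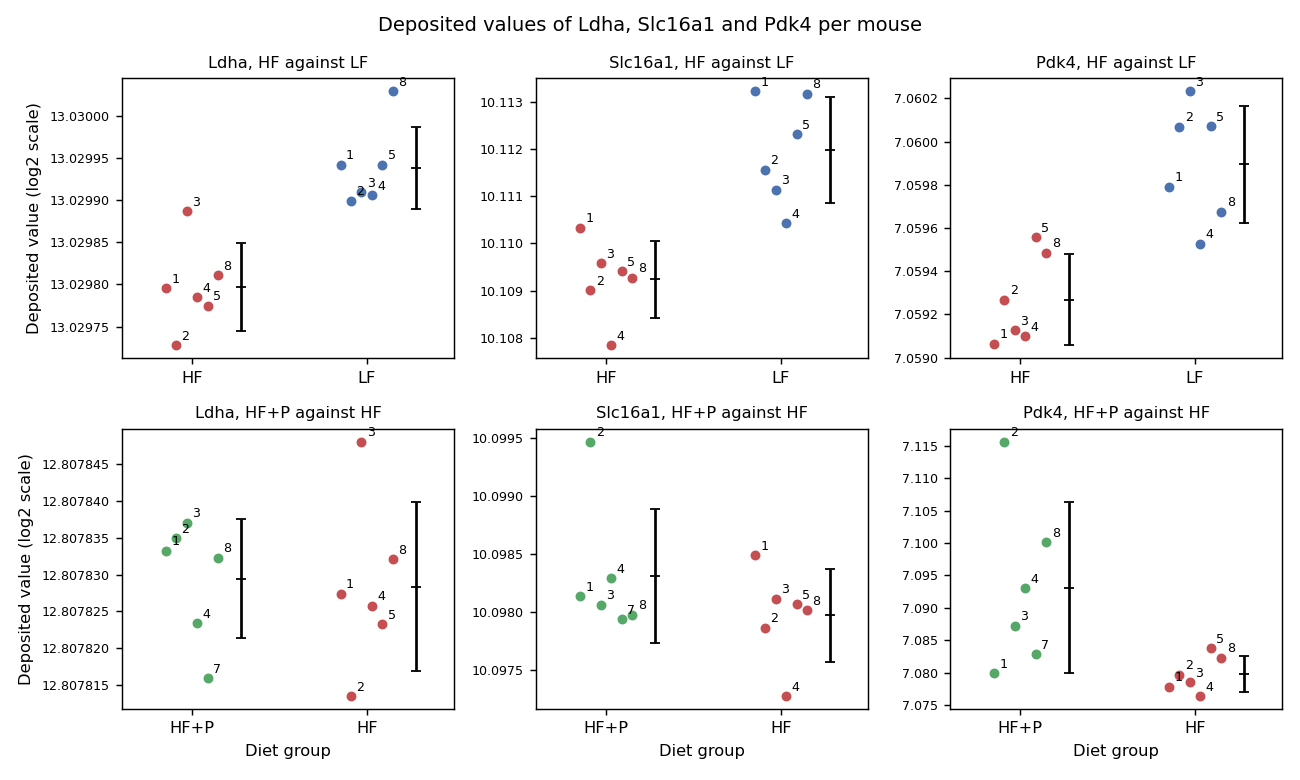
Deposited values (vertical axes, log2 scale, not starting at 0) of Ldha, Slc16a1 (probe set 1415802_at) and Pdk4 in each mouse, with mouse numbers, group means and SD bars (n = 6 per group). In the upper panels all HF mice lie below all LF mice for Ldha and Slc16a1 and 5 of 6 do for Pdk4; in the lower panels HF+P and HF mice overlap for all 3 genes, and the 2 rows of panels come from separate value sets whose levels are not comparable.

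The other kinases showed less. The representing probe set of Pdk1, 1423747_a_at, had standardized values between -2.52 and 0.95 in HF mice (median -1.62), against -0.67 to 1.04 in LF mice (median -0.23), in pooled SDs from the LF mean. HF mouse 5 lay among the LF mice and the other 5 HF mice lay below them. The difference was -1.22 (-2.36 to -0.023; limma, adjusted p = 0.350). The other 3 Pdk1 probe sets stood at -0.66, -0.37 and -0.27, all with intervals that include 0. Pdk2, a widely expressed kinase, stood at -0.41 (-1.46 to 0.66; adjusted p = 0.810). It was called only after rescaling, by quantile normalisation and by median centring, which both called many more probe sets than the main fit. Pdp2, the phosphatase that opposes the kinases, stood at 0.23 (-0.82 to 1.28; adjusted p = 0.906), and its sign turned after quantile normalisation (-1.04) and median centring (-1.40).

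Both subunits of the pyruvate dehydrogenase enzyme had lower values in HF livers without passing. Pdha1, the alpha subunit that carries the phosphorylation sites, was read by 2 probe sets with differences of -1.78 (-3.05 to -0.46; adjusted p = 0.164) and -1.55 (-2.77 to -0.28; adjusted p = 0.220). In each of them 5 of 6 HF mice lay below every LF mouse. For Pdhb, the beta subunit, the probe sets stood at -1.72 (-2.98 to -0.41; adjusted p = 0.179) and, for the brighter one, at -0.50 (-1.56 to 0.58; adjusted p = 0.779). The deposited differences behind these 4 values lie between -7.37e-06 and -7.38e-07. Mpc1, the subunit of the pyruvate carrier that was measured, stood at 0.04 (-1.01 to 1.08; adjusted p = 0.988), with HF mice inside the range of LF mice.

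Over the 15 member probe sets, 12 lay lower and 3 higher in HF livers, and the median of their standardized differences was -0.66, against 49.2% of all probe sets lower and a median of 0.01. Mpc1, Pdp2 and the dimmer Slc16a1 probe set were the 3 with higher values, and all 15 were lower after median centring, a setting that called 39841 of all probe sets lower. Of the members 7 had an unadjusted p under 0.05, all of them lower in HF, against 7.25% of all probe sets for that direction and 5.69% for the other. These are 1 probe set each of Pdk1, Pdk4, Ldha, Slc16a1 and Pdhb and both of Pdha1, so the probe sets are not independent genes. Of 7 measured hepatocyte markers 6 had lower values in HF with a median of -0.66 and 0 passed. Alb, Ttr and Apoa1 among them differed by only 3.3e-09, -1.5e-08 and -1.3e-08, in the last deposited decimals. Their directions are therefore not read, although they enter the count and the hepatocyte scores. All 7 macrophage and all 6 lymphocyte markers had higher values, with medians of 0.63 and 0.66 and 0 passed. Among the lymphocyte markers only Nkg7, at 3.81e-05, differed by more than the gap of 3.36e-05 between the medians of HF and LF arrays. The directions of the other lymphocyte markers are therefore not read. They enter the lymphocyte scores, that of HF mouse 3 included. Marker scores, the mean over a list in pooled SDs from the LF mean, ranged from -1.37 to 0.21 in HF and from -0.81 to 0.54 in LF mice for hepatocytes, from -0.33 to 2.47 in HF and from -0.87 to 1.49 in LF mice for macrophages, and from 0.20 to 2.10 in HF and from -0.40 to 0.34 in LF mice for lymphocytes. Marker lists of endothelial, pancreatic acinar, red blood, fat, skeletal muscle, stellate and bile duct cells had 0 genes called over probe sets, with medians between -0.82 (endothelial) and 0.94 (pancreatic acinar). Over genes, the level at which the 3 members were called, the endothelial receptor gene Tek was called lower as well (-2.53, limma, adjusted p = 0.0402, and 0.0576 over probe sets). Scores of the 3 measured pancreatic acinar markers did not overlap between groups (0.69 to 1.67 in HF mice, -0.68 to 0.57 in LF mice). Those of the other cell type lists overlapped. The part of any of these lists in the values of the pyruvate and lactate genes was not tested.

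**Figure D2:**
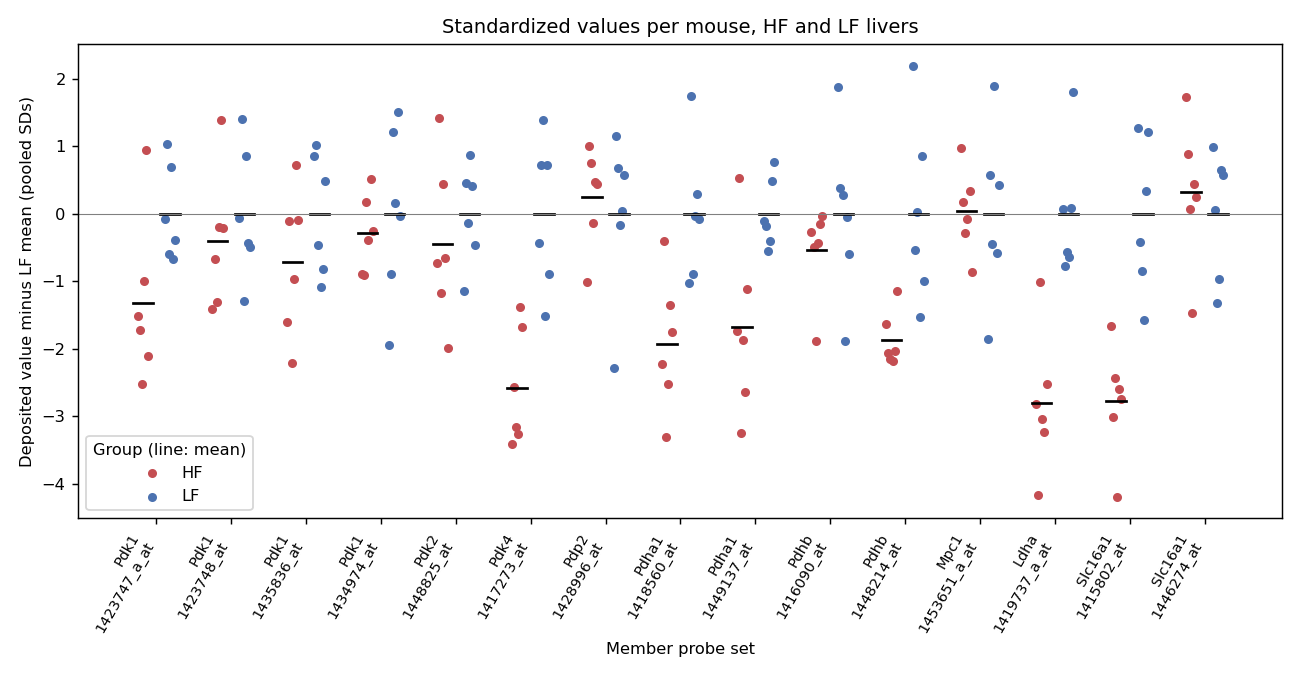
Deposited value of each member probe set in each mouse, as the distance from the LF mean in pooled SDs (vertical axis), for HF and LF mice with a line at each group mean (n = 6 per group). The HF means of Ldha, Slc16a1 (1415802_at) and Pdk4 lie lowest, while Mpc1, Pdp2 and the dimmer Slc16a1 probe set have HF means slightly above the LF mean, a direction that turns after median centring.

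Other genes of pyruvate and lactate handling were read at the brightest probe set of each gene. Of 26 measured genes 0 passed in either direction, 12 lay higher and 14 lower in HF livers, and their median was -0.20. The remaining parts of the pyruvate dehydrogenase system stood at -0.32 for Dlat, the acetyltransferase core, -0.91 for Dld, the shared lipoamide dehydrogenase, and -0.76 for Pdhx, the binding protein. Pdk3 stood at 0.55, the phosphatase Pdp1 at 0.34 and its regulatory subunit Pdpr at -1.24 (limma, adjusted p = 0.340). Pdha2, the testis form of the alpha subunit, stood at -0.65. The other lactate dehydrogenase genes of the list, picked after their values were seen, did not share 1 direction. Ldhb, the heart-type subunit, stood at -0.48 (adjusted p = 0.778), Ldhc, the testis-type subunit, at -2.23 (adjusted p = 0.0894, and 0.0641 over genes) and Ldhd, the D-lactate dehydrogenase, at 1.70 (adjusted p = 0.175, unadjusted p = 0.00726).

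Genes that share a regulator with Pdk4 or Ldha were read as well. Of 12 measured PPAR-alpha and fasting genes 3 fell and 0 rose, with a median of -1.20, against 0.402% of all probe sets called lower. G6pc, the last enzyme of glucose release, stood at -3.10 (limma, adjusted p = 0.0261), Acot1, an acyl-CoA thioesterase with close copies, at -3.42 (adjusted p = 0.0166) and Ehhadh, a peroxisomal enzyme, at -3.08 (adjusted p = 0.0272). This list was drawn up with the falls of these 3 genes in the same mice already known, so its count is not independent evidence. Of 15 glycolysis and hypoxia genes 0 passed, 8 had higher and 7 lower values, and the median was 0.07. This median covers genes in both directions, some of them named here after their values were seen. Tpi1 stood at -2.09 (limma, adjusted p = 0.101 over probe sets and 0.0738 over genes). Its glycolytic neighbours Pgam1, Pgk1 and Aldoa stood at -1.55, -1.34 and -1.30. Among the 8 higher genes, Slc2a2 stood at 0.88 and Hk1 at 0.84. Of 18 factors known to act on Pdk4 or Ldha transcription 0 passed, 9 were higher and 9 lower, with a median of -0.04.

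HF+P livers were set against HF livers to see what the added propagules did. No member probe set passed (limma, adjusted p = 0.522 or more), where 1 of 45037 probe sets, 0.00222%, was called, it was higher, and 0.0% were called lower; over genes 0 of 9 passed, against 0.0055% of all genes. Pdhb and Pdk4 had the 2 highest standardized differences, 1.90 and 1.30, and were the 2 members with an unadjusted p under 0.05, against 3.74% of all probe sets with such a p and higher values and 3.2% with lower values. No member had groups that did not overlap, against 0.162% of all probe sets with HF+P higher and 0.193% with HF+P lower. Ldha and the brighter Slc16a1 probe set, lowest in the comparison of HF with LF, stood at 0.10 and 0.63. Both comparisons share the 6 HF mice, so their values are given side by side and not combined.

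Pdk4 had deposited values of 7.0799, 7.0901 and 7.1156 in HF+P mice, against 7.0764, 7.0791 and 7.0838 in HF mice. HF+P mouse 2 was highest, followed by HF+P mice 8, 4 and 3, all 4 above every HF mouse, while HF+P mice 7 and 1 lay among the HF mice. The standardized difference was 1.30 (0.086 to 2.46; limma, adjusted p = 0.673; exact permutation p = 0.0130). The spread was unequal, with an SD of 0.0132 in HF+P mice and 0.00280 in HF mice (n = 6 each). PPAR-alpha and fasting genes stood higher in 10 of 12 cases with 0 passing and a median of 0.54, against a median of -0.01 over all probe sets, and HF+P mouse 2 also had the highest score of that list in its group, 1.44.

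For Pdhb the probe set 1448214_at had standardized values between 0.24 and 3.77 in HF+P mice (median 2.22), against -0.55 to 0.70 in HF mice (median -0.12), in pooled SDs from the HF mean. HF+P mouse 2 lay among the HF mice and the other 5 HF+P mice lay above them. The difference was 1.90 (0.54 to 3.20; adjusted p = 0.522; exact permutation p = 0.00649). The brighter Pdhb probe set stood at 1.06 (-0.10 to 2.18; adjusted p = 0.740; exact permutation p = 0.0173), and HF+P mouse 1 was its highest value at 3.68 pooled SDs above the HF mean. Pdha1 stood at 1.11 (-0.065 to 2.23; adjusted p = 0.727) and 0.69 (-0.41 to 1.76), and the sign of its brighter probe set turned after quantile normalisation (-0.84), where its rank spanned 1 place.

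Ldha had standardized values between -1.25 and 0.88 in HF+P mice, against -1.49 to 1.98 in HF mice, with a difference of 0.10 (-0.94 to 1.15; adjusted p = 0.986). Its sign turned when HF+P mouse 3 or HF mouse 2 was left out. Slc16a1 (1415802_at) had deposited values of 10.0979, 10.0981 and 10.0995 in HF+P mice, against 10.0973, 10.0980 and 10.0985 in HF mice. Only HF+P mouse 2 lay above every HF mouse. The difference was 0.63 (-0.46 to 1.70; adjusted p = 0.848), and that of the dimmer probe set 0.17 (-0.88 to 1.21). The 4 Pdk1 probe sets stood between 0.32 and 0.98, Pdk2 at 0.34, Pdp2 at 0.61 and Mpc1 at -0.18 (-1.22 to 0.87), whose sign turned to 0.17 after median centring.

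**Figure D3:**
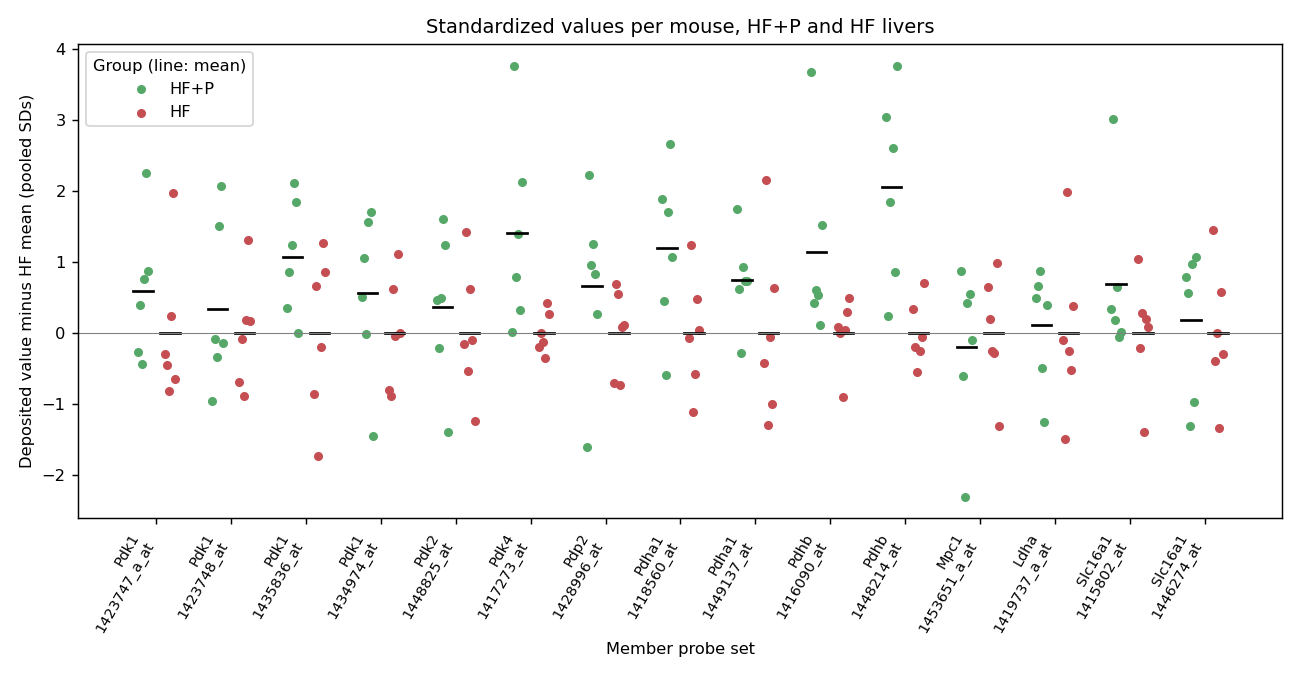
Deposited value of each member probe set in each mouse, as the distance from the HF mean in pooled SDs (vertical axis), for HF+P and HF mice with a line at each group mean (n = 6 per group). HF+P mouse 2 reaches 3.76 for Pdk4 and 3.01 for Slc16a1 (1415802_at), and the groups overlap for every member.

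Over the members, 14 probe sets had higher and 1 lower values in HF+P than in HF, with a median of 0.61, against 50.7% of all probe sets lower. These probe sets stand for 9 genes and are not independent, and the HF mice are those of the comparison with LF. Of the 26 other pyruvate and lactate genes 12 were higher and 14 lower, with 0 passing and a median of -0.02. Among the 18 factors 11 were higher and 7 lower (median 0.32) and among the 15 glycolysis and hypoxia genes 10 were higher and 5 lower (median 0.23), with 0 passing in each. Dld stood at 1.84 (limma, adjusted p = 0.532) and Pdpr at 1.43 (adjusted p = 0.638), while Dlat stood at 0.07, Pdhx at 0.45, Pdk3 at -0.52, Pdp1 at 0.21 and Pdha2 at -0.67. Hepatocyte markers had higher values in 5 of 7 cases (median 0.40), and all 7 macrophage markers had lower values in HF+P (median -0.63), with 0 passing in each list. The hepatocyte markers Alb, Ttr and Apoa1 differed by only 1.7e-09, -1.0e-08 and -6.7e-09, in the last deposited decimals, so their directions are not read. Macrophage scores ranged from -1.78 to 0.24 in HF+P mice and from -1.09 to 1.82 in HF mice, in pooled SDs from the HF mean, and hepatocyte scores from -0.65 to 1.15 in HF+P mice and from -0.72 to 0.80 in HF mice. Scores of the 3 measured pancreatic acinar markers did not overlap (-1.63 to -0.45 in HF+P mice, -0.31 to 0.54 in HF mice), and 0 passed. Those of the other cell type lists overlapped. The part of these lists in the values of the members was not tested.

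**Figure D4:**
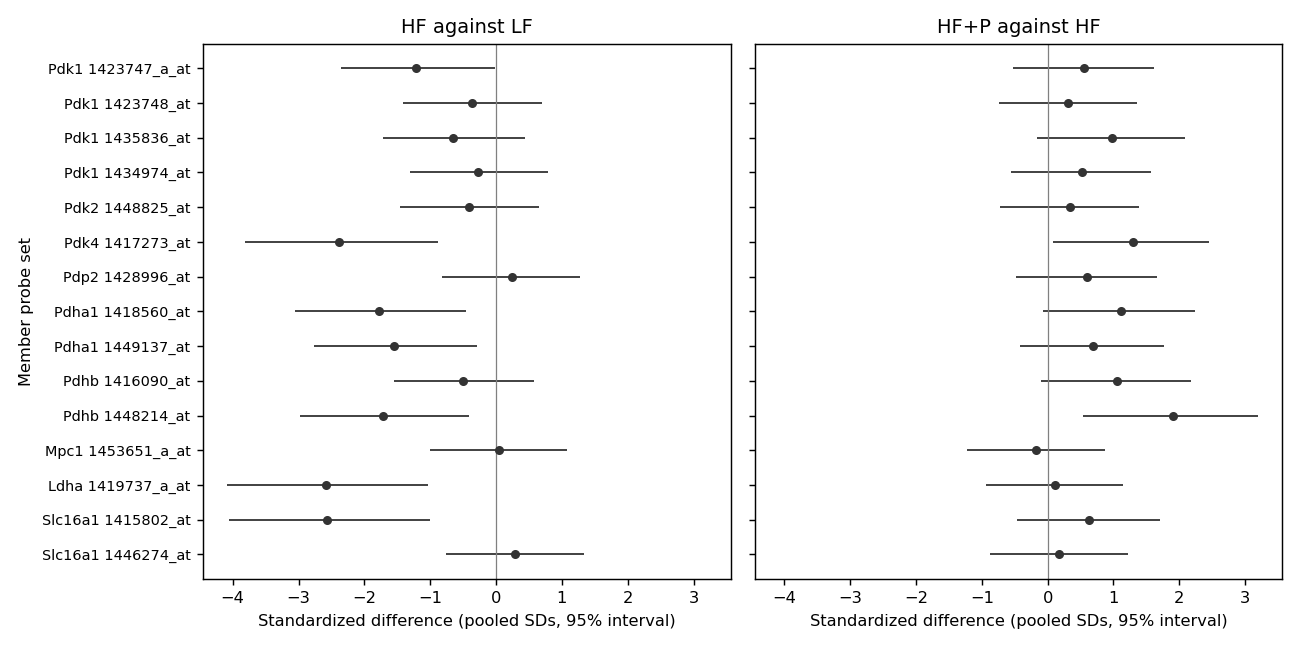
Standardized differences of the 15 member probe sets in pooled SDs with 95% intervals (horizontal axis), for HF against LF (left) and HF+P against HF (right), which share the 6 HF mice. On the left 7 intervals lie wholly below 0, and on the right those of Pdk4 and of the Pdhb probe set 1448214_at lie above 0; no member passed the adjusted threshold on either side.

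Because the HF arrays were processed in both value sets, each member could be read in the same 6 mice from separate processing. The order of the HF mice was identical in both sets for 8 of 15 member probe sets, among them Ldha and the brighter Slc16a1 probe set, and Spearman's rho was 0.943 for Pdk4 (n = 6 mice). Among all probe sets 24.7% kept the same order and the median rho was 0.943. The lowest rho of a member was 0.60, for the dimmer Slc16a1 probe set. The spread did not carry over in the same way. The SD of Pdk4 among HF mice was 0.00280 in the set with HF+P and 0.000210 in the set with LF, a ratio of 13.3. For Ldha it was 1.15e-05 and 5.24e-05, a ratio of 0.219. The median ratio over all probe sets was 0.9999. Deposited differences of a gene are therefore not comparable between the 2 comparisons.

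**Figure D5:**
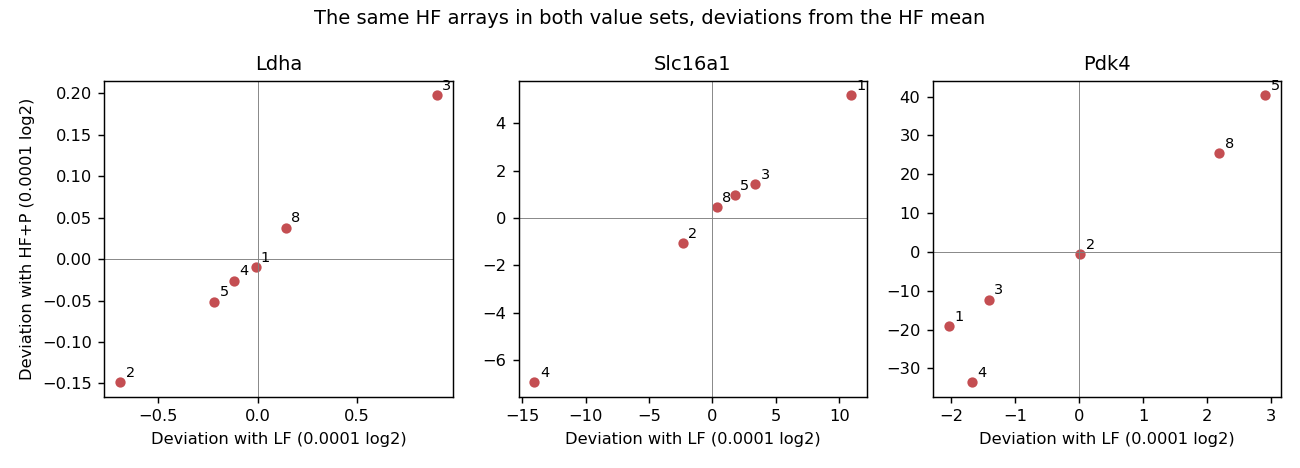
Deviation of each HF mouse from the HF mean for Ldha, Slc16a1 (1415802_at) and Pdk4 in the value set processed with LF (horizontal axis) and in the set processed with HF+P (vertical axis), in units of 0.0001 on the log2 scale, with mouse numbers. The order of the 6 mice is the same in both sets for Ldha and Slc16a1 and differs for mice 1 and 4 in Pdk4, while the axis ranges differ by gene and by set.

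The genes most like Pdk4 across mice were ranked by Pearson's r of the deviations from the group means over the 12 LF and HF mice, among 18192 other genes. The 5 highest were F2, which encodes prothrombin, at 0.912, D630004K10Rik at 0.905, Mark3, a kinase, at 0.884, Grasp at 0.884 and Taf13, a subunit of the general transcription factor TFIID, at 0.875. In the 12 HF+P and HF mice the same 5 genes had r between -0.26 and 0.08 with Pdk4. The likeness in LF and HF mice was thus not seen in the other value set, which shares the 6 HF arrays.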

How the data were processed

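Liver RNA of 18 mice was hybridised to Affymetrix 3' in vitro transcription arrays, per the labels' protocols. The authors deposited 1 table of 45101 probe sets and 24 columns, read here as log2 values; R 2.7.2 is named in the submitters' processing notes, while how probes were summarised and scaled, and whether the log base is 2, was not stated in the labels used here. The HF arrays were processed with LF and again with HF+P, per the series' design text. The platform annotation gives 1 symbol for 34958 probe sets, more than 1 for 932 and none here for 9211. The 64 array controls were left out of the tests.

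Tests across probe sets used limma 3.58.1 under R 4.3.3 (lmFit and eBayes, two-sided, 45037 probe sets) and were tested on simulated data. The exact permutation tests were two-sided. Intervals come from the noncentral t distribution with 10 degrees of freedom. Alternatives were quantile normalisation, median centring, 1 probe set per gene, the brighter part of the probe sets, trend and robust settings, array weights, a threshold of 0.10, the mouse number as a replicate block and fits without each mouse in turn; those without a mouse over genes were added after seeing the data. All members are reported. From each other list up to 3 genes past the threshold per direction and the rest of the pyruvate dehydrogenase system are named. The other lactate dehydrogenase genes and some genes of the glycolysis and hypoxia list were named in addition, after their values were seen. For likeness, Pdk4 was used because no member passed. Members and lists were chosen with earlier results of these data known. The labels give separate mouse numbers within each group, and the groups were treated as different animals.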

Additional observations from a re-analysis of the deposited data

Results flagged for a closer look

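In 60 groups of 6 mice (15 member probe sets in 4 groups of columns) a mouse was looked for whose gap to the next mouse took an unusual share of the group's range. Chance gives this in about 1 in 20 groups, and 4 were found. For Ldha, LF mouse 8 was the highest LF mouse at 13.03003, with the next at 13.02994, a gap of 0.6699 of the range. For the brighter Pdhb probe set, HF mouse 3 was lowest in both value sets, with gaps of 0.757 in the set with LF and 0.6455 in the set with HF+P; these are 1 array processed at 2 times, not independent. For Slc16a1 (1415802_at), HF+P mouse 2 was highest at 10.0995 with the next at 10.0983, a gap of 0.7688.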

How the results depend on the processing

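In the comparison of HF with LF, 0 of 15 member probe sets were called over all probe sets at 0.05 and with trend and robust settings, 3 with 1 probe set per gene, with the brighter part of the probe sets and at a threshold of 0.10 (Ldha, Slc16a1 and Pdk4 each time), 1 with array weights (Ldha), 4 after quantile normalisation (Slc16a1, Pdk4, Pdk2 and Pdhb 1448214_at) and 15 after median centring. Over all probe sets 302 were called, 6734 after quantile normalisation, 40266 after median centring and 861 at a threshold of 0.10. The brighter part, which kept only probe sets at or above the median mean value, had 581 calls. Totals with array weights and with trend and robust settings are not given here, so those member counts have no share beside them. Quantile normalisation sets values by rank, and the median probe set changed rank by 3 places among the arrays; it gave no value for Ldha, Mpc1, Pdha1 1418560_at and Pdhb 1416090_at, whose rank was the same in all arrays. Median centring shifts HF relative to LF by 3.36e-05, and 92.3% of probe sets differ by less. Leaving out single mice gave 131 to 357 calls and 0 to 3 called members, over probe sets or over genes; the count of probe sets moved by over 1.5 times without HF mouse 2, 3 or 4 or LF mouse 1, 3, 5 or 8, and members were called over probe sets without HF mouse 3 (1), and without LF mouse 4 (2). With the mouse number as a replicate block 246 probe sets and 1 member, Slc16a1, were called. Same-numbered HF and LF mice correlated between -0.142 and 0.107 in their deviations, and 4 of 6 HF mice correlated best with their own number. Same-numbered HF+P and HF mice correlated between 0.036 and 0.232. HF+P mice 1, 4 and 8 also correlated best with their own number, while HF+P mice 2 and 3 did not. These values do not settle whether same-numbered mice share something. The main fits did not take the numbers as pairs, and the replicate block is given as the alternative. The sign turned for Pdp2 (-1.04 by quantile normalisation, -1.40 by median centring), Slc16a1 1446274_at (-0.36 and -1.98) and Mpc1 (-1.82 by median centring); without single mice it also turned for Mpc1 (range -0.371 to 0.485), Pdp2 (-0.285 to 0.490) and Pdk1 1434974_at (-0.800 to 0.00988). In HF+P against HF, 0 members were called under every setting run and 0 to 2 probe sets in all, with 1 under the replicate block. Quantile normalisation gave no value in this comparison for Ldha, Mpc1, Pdk1 1423747_a_at and Pdhb 1416090_at, whose rank was the same in all arrays. The sign turned for Pdha1 1418560_at (-0.84, quantile normalisation), Mpc1 (0.17, median centring) and, without single mice, Mpc1 (-0.442 to 0.291), Ldha (-0.188 to 0.608), Pdk1 1423748_at (-0.00365 to 0.590) and Slc16a1 1446274_at (-0.0814 to 0.492). The cause of these turns was not tested, beyond the construction of the rescalings.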
